A study of Mus musculus with 4 samples.

Results

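The CTCF regions with the strongest peaks in control WEHI-231 cells that were also called in every library numbered 1274, of 29116 CTCF regions in all. They were chosen by merging the peaks of 4 peak lists wherever they shared at least 1 bp and taking, per region and library, the highest score that the authors gave a peak. A region was kept when it lay on an autosome, spanned 1000 bp or less, had a peak in all 4 libraries and had a score of 200 or more in both control libraries. They made up 4.38% of all regions and 11.3% of the 11241 autosomal regions of that width called in all 4 libraries. The remaining 9967 of those regions, which are weaker in at least 1 control, served for comparison and are called the other shared regions. The control scores and the calls chose the members, so their high control scores and their presence in every list are not results.

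CTCF binding was mapped by chromatin immunoprecipitation and sequencing with an antibody to CTCF in WEHI-231, a B cell lymphoma line of the strain cross (BALB/c x NZB)F1. The control group (CT) and the group with a stable TFII-I knockdown (shTFII-I) comprised 2 libraries each, and no other treatment was named for either group. Whether the knockdown cells were 1 clone or a pool, and whether replicates came from separate cultures, is not given in the sources used here, so the spread between replicates may be technical. The series asks whether the transcription factor TFII-I directs CTCF to gene promoters, and the degree of knockdown was not analysed here.

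CTCF is a zinc finger protein that reads a long, conserved DNA motif with its fingers. A ring-shaped complex, cohesin, is held up at bound CTCF sites, and pairs of sites pointing towards each other form the bases of chromatin loops and the borders of domains. Sites with a strong match to the motif tend to be bound in many cell types, while weaker sites differ more between cells. TFII-I, encoded by Gtf2i, binds initiator and E-box elements at promoters and has been described as a partner of CTCF. No genome or annotation of the build mm9 was used here, so the regions are given by position, and neither their sequence nor their genes were examined.

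The lists differed in length and in score. Control replicates 1 and 2 held 24467 and 23873 peaks, and knockdown replicates 1 and 2 held 19076 and 15309. A score of 200, which can be read as a p of 1e-20, was reached by 12.1% and 10.6% of the control peaks but by 3.41% and 2.40% of the knockdown peaks. A score rises with the number of sequenced tags as well as with enrichment, and tag numbers were not used here, so a lower score in a knockdown list and a shallower library cannot be told apart. Scores are therefore given side by side, and libraries were compared by rank. The rank of a region is its percentile by score among the 11741 regions called in all 4 libraries, the same regions in each list, with 100 as the highest.

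The scores of the 1274 regions spread widely in each list. In control replicate 1 they ran from 200.2 to 3100, with a median of 271 and quartiles of 229.7 and 364. Control replicate 2 gave a range from 200.1 to 3100, with a median of 265 and quartiles of 229 and 353. Both control lists thus show nearly the same distribution, crowded just above the limit. In knockdown replicate 1 the scores ran from 50.9 to 3100, with a median of 160.4 and quartiles of 122 and 219, and in knockdown replicate 2 from 50.3 to 3100, with a median of 133 and quartiles of 98.1 and 179. Some members therefore lay at the very bottom of the knockdown lists, whose lowest scores were 50 and 50.02. A score of 200 was kept by 407 members in knockdown replicate 1, by 242 in replicate 2, by 195 in both (15.3%) and by neither in 820. The other shared regions had median scores of 138.5 and 133 in control, against of 93.7 and 81.6 in knockdown.

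**Figure D1:**
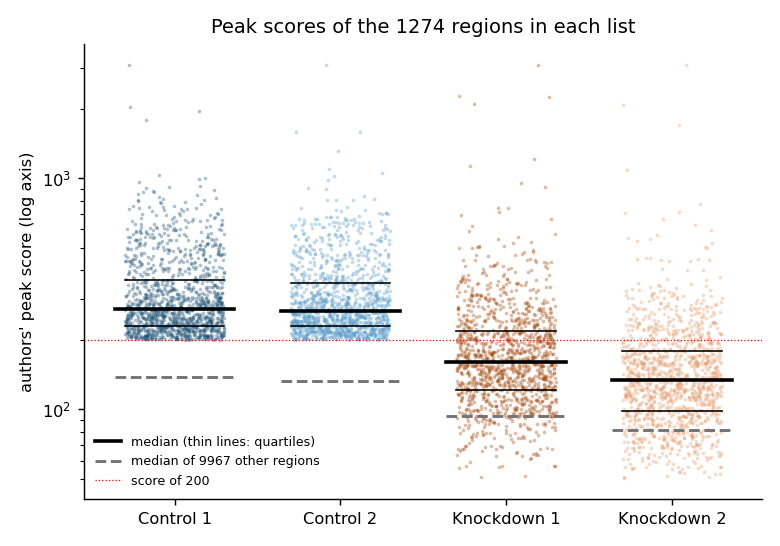
Each point is 1 of the 1274 regions, with the authors' peak score on a log axis for the 4 libraries, thick lines at the median, thin lines at the quartiles and dashed lines at the median of the 9967 other shared regions. The control points stop at the limit of 200 by the rule, while the knockdown points reach down to about the lowest score of their lists.

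Both knockdown scores lay below both control scores in 1199 of the 1274 regions (94.1%), against 62% of all regions called in all 4 libraries. The rule used the control scores, and the knockdown lists had lower scores as a whole, so nothing is read from this count. Knockdown replicate 1 scored below both controls in 1212 members and above both in 23, and knockdown replicate 2 below in 1246 and above in 9. Among the members, control replicate 1 scored above control replicate 2 in 55.0%, and knockdown replicate 1 above knockdown replicate 2 in 69.9%. Only 2 members had both knockdown scores above both control scores, 0.157% of them, against 1.93% of all regions called in all 4. One was chr6:103598873-103599503, with scores of 2043 and 1584 in control, against 2241 and 2081 in knockdown. The other was chr9:3037871-3038589, with scores of 379 and 302 in control, against 543 and 449 in knockdown. The second of these regions, named after its values were seen, lay 37981 bp from the first call on its chromosome.

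Strong control regions were rarely without a knockdown call. Of the 1322 autosomal regions of 1000 bp or less with a score of 200 or more in both controls, 1274 (96.4%, 95% Clopper-Pearson interval 95.2 to 97.3%) were called in both knockdown libraries. Among all 19988 such regions called in both controls, whatever their score, the share was 56.2%. Knockdown replicate 1 had a call in 99.5% of the 1322 and replicate 2 in 96.7%. The rule drops the rest, of which 42 were called in knockdown replicate 1 alone, 5 in replicate 2 alone and 1 in neither. Intervals here cover counting error over regions, which are not replicates.

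The strongest of the regions dropped for want of a call were missing from knockdown replicate 2, the shortest list. First among them was chr15:102501403-102502014, with control scores of 507 and 498, at places 186 and 158 of the control lists, and a score of 215 in knockdown replicate 1. The region chr13:58289602-58290382 had control scores of 441 and 305 and a score of 137 in knockdown replicate 1. At chr3:54539049-54539552 the controls scored 287 and 327 and knockdown replicate 1 scored 121. All of the 6 leading regions of this kind had a call in knockdown replicate 1 and none in replicate 2. The remaining regions of the 6 were chr17:29073353-29073894, chr11:97008033-97008547 and chr2:163648933-163649543, with knockdown replicate 1 scores of 74.5, 109 and 112.

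The limit of 200 cuts through a continuous range. Just inside it lay chr12:29384352-29385060, with control scores of 255 and 200.1, chr8:36531829-36532626, with 200.2 and 259, and chr11:101072983-101073723, with 200.2 and 246. Just outside it lay chr19:9156839-9157518, with control scores of 199.96 and 229, chr7:20046765-20047318, with 199.95 and 214, and chr11:3686440-3687139, with 249 and 199.89. A further 1216 autosomal regions called in all 4 libraries reached the limit in control replicate 1 alone and 860 in control replicate 2 alone. The width limit removed 84 regions that met every other part of the rule, and the restriction to autosomes removed 24.

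In rank the members stood near the top of every list. Control replicates 1 and 2 gave a median rank of 92.5 and 92.9, against 88.1 and 85.5 in knockdown replicates 1 and 2. The group means of these medians were 92.7 ± 0.271 (SD, n = 2) for control and 86.8 ± 1.77 (SD, n = 2) for knockdown, a difference of -5.89 percentile points. The two-sided exact permutation test over the 4 libraries gave p = 0.333, the smallest value that 2 libraries against 2 allow, so it could not pass 0.05. The control ranks also come from the scores by which the rule chose the members. The difference is therefore a description, and nothing is read from the test. Taken per region, the mean knockdown rank minus the mean control rank had a median of -7.34 points over the 1274 members, with quartiles of -24.0 and -0.490, and 1.93 points over the other shared regions. With members chosen and ranked without 1 library, it was -15.1 points without control replicate 1, -15.6 without control replicate 2, -5.25 without knockdown replicate 1 and -2.62 without knockdown replicate 2. In the pairs of libraries with the same replicate number the median was -2.76 points for replicate 1 and -5.88 for replicate 2. A rank over 75 in both knockdown lists was held by 670 members (52.6%), a count that was not made for the other shared regions. Those regions had median ranks of 44.9 and 45.5 in knockdown replicates 1 and 2.

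Regions chosen by their rank in some of the lists ranked lower in the lists not used for the choice. As many regions chosen by the lower of their 2 knockdown ranks had median ranks of 91.3 and 91.0 in the knockdown lists and of 87.3 and 87.0 in the controls. That set, chosen the other way round, stood 3.63 points higher in knockdown than in control, so the sign of the rank difference followed the libraries used for the choice. The 2 sets shared 661 regions, 51.9% of each. No selective loss of rank at the strongest control regions is therefore read from the difference of the members.

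Sets chosen on 1 library alone show how well each list is matched by the others. The 1274 regions with the highest rank in control replicate 1 had a median rank of 90.7 in control replicate 2, 86.8 in knockdown replicate 1 and 83.0 in knockdown replicate 2. Chosen on control replicate 2, they stood at 90.6 in control replicate 1, 87.0 in knockdown replicate 1 and 83.7 in knockdown replicate 2. Both controls thus matched each other more closely than either matched a knockdown list. The control lists were also longer and higher in score, and the match at equal depth was not tested. Chosen on knockdown replicate 1, the regions stood at 87.1 and 86.9 in the controls and at 84.4 in knockdown replicate 2. The knockdown replicates therefore did not match each other more closely than knockdown replicate 1 matched the controls. Chosen on knockdown replicate 2, they stood at 82.9 and 83.9 in the controls and at 84.0 in knockdown replicate 1.

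The overlap of these sets of equal size was also largest between the controls. The top 1274 regions of the control lists shared 722 regions, 56.7% of each set. Knockdown replicate 1 shared 48.1% and 48.4% with the controls, and knockdown replicate 2 shared 41.4% and 42.9% with them. The pair of knockdown lists shared 42.9%. With the score limit of 200 applied in control replicate 1 alone, 2490 regions were chosen, with a median rank of 81.2 in control replicate 2 and of 77.2 and 74.5 in the knockdown lists. Applied in control replicate 2 alone, the limit chose 2134 regions, with a median rank of 83.4 in control replicate 1 and of 79.0 and 77.3 in the knockdown lists. In both choices the knockdown ranks stood below that of the control library that had not been used, with differences of -5.31 and -5.19 points between the mean of the knockdown medians and that control median.

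**Figure D2:**
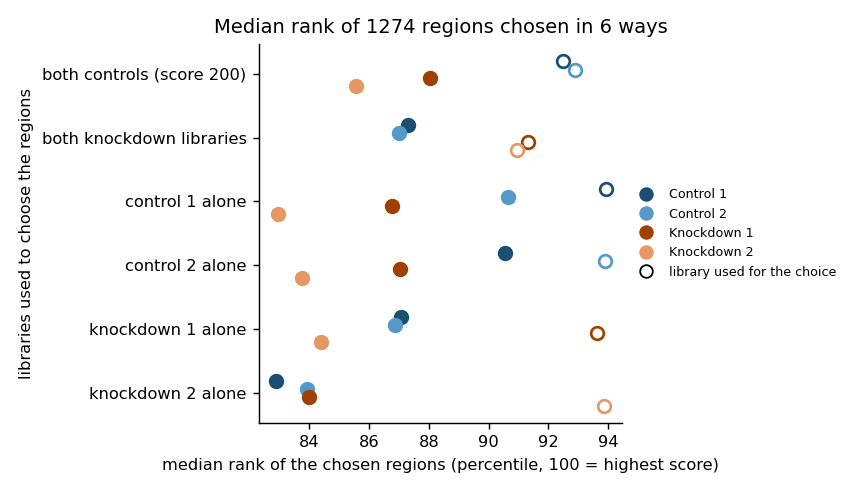
Median rank (percentile, 100 = highest score) in each of the 4 libraries of 1274 regions chosen in 6 ways, with open circles for the libraries used in the choice and filled circles for the others. The set chosen on both controls has knockdown medians of 88.1 and 85.5, and the set chosen on both knockdown libraries has control medians of 87.3 and 87.0.

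Within the 1274 regions the order was only partly kept from list to list. Spearman's rho across regions was 0.666 between the controls and 0.583 between the knockdown lists. Across the groups it ran from 0.501 (control replicate 1 and knockdown replicate 2) to 0.595 (control replicate 2 and knockdown replicate 1). The other shared regions had lower values, from 0.249 between the knockdown lists to 0.449 between the controls. These are descriptions across regions, which share their libraries and their depth. The rule split members from other shared regions by control score, so their score ranges differ and their rho values are not like for like.

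Members with a higher control score also had a higher median knockdown rank. The 694 members with a lower control score from 200 up to 250 had median ranks of 86.8 and 88.4 in control, against 77.8 and 76.2 in knockdown, and 7 of them scored 200 or more in both knockdown lists. From 250 up to 300 there were 223 members, with median knockdown ranks of 89.6 and 84.9. From 300 up to 400, 148 members had median knockdown ranks of 95.5 and 92.9, and 35 scored 200 or more in both knockdown lists. The 158 members from 400 up to 600 had medians of 98.1 and 97.9, and 92 of them (58.2%) reached 200 in both. Of the 51 members at 600 or more, 44 (86.3%) did so, with median knockdown ranks of 99.4 and 99.4. A member that starts farther above 200 has more room before it passes under it, so these counts rise in part by construction. Both knockdown ranks lay below both control ranks in 30 of these 51 (58.8%), against 39.9 to 47.1% in the lower ranges. Over all regions called in all 4 libraries this share was 17.9%. The 51 had median control ranks of 99.5 and 99.6, where a small difference in rank is enough for the call. The rule used the control scores, so nothing is read from these shares. These 51 lay on 18 of the 19 autosomes, and their lowest ranks were 89.8 in knockdown replicate 1 and 86.4 in replicate 2. In all, 319 members (25.04%) stood above rank 90 in all 4 lists, a count that was not made for the other shared regions. Its control ranks come from the scores that the rule used. No percentile can exceed 100, so a region near the top has little room to stand higher, and this gradient is a description.

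The 8 regions with the highest mean rank include several whose knockdown scores were not below the control scores. The region chr9:35112588-35113412 had the highest score of the list, 3100, in all 4 libraries, the only member to do so. All 4 lists, whatever their length, had this same highest score, so equal scores there need not mean equal binding. At chr12:3109765-3110364 the scores were 1953 and 1591 in control, against 2274 and 1699 in knockdown, and this was the first call of any library on its chromosome. The region chr6:103598873-103599503 is one of the 2 with higher scores in both knockdown lists. At chr18:40467438-40468280 the controls scored 1791 and 1311 and the knockdown libraries 2091 and 1084. The region chr3:56379125-56379835 had control scores of 921 and 986 and knockdown scores of 1135 and 668. In each of these 5 regions at least 1 knockdown score was as high as both control scores, which for the region on chromosome 9 is a tie at 3100.

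Of the 8 regions, 7 had at most 2 neighbours. These 5 had 1, 0, 2, 2 and 0 other CTCF regions within 100 kb. The last 3 of the 8, which scored lower in knockdown, had 2, 8 and 1. The median member had 5, and the 51 members in the highest range of control scores had a median of 6. Few neighbours thus held for 7 of these 8 regions and not for the strongest members as a set. The nearest region of any class was 567429.5 bp away from the one on chromosome 3 and 143848.5 bp from the one on chromosome 12. They were not screened against a list of artefact-prone positions, so they are given as high scores only. Without the single region at the highest score of a list, the median rank difference of the members stayed at -7.34 points.

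The last 3 of the 8 had lower scores in knockdown, as most members did. At chr1:24619432-24620116 the controls scored 962 and 1018 and the knockdown libraries 555 and 713. The region chr4:137838548-137839217 scored 1034 and 1049 in control, against 526 and 505 in knockdown. For chr3:135394058-135394760 the scores were 826 and 895 against 666 and 534. All of these 3 ranked at 99.6 or higher in every list.

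The leading region of each remaining autosome ranked between 96.7 and 99.9 in every list. On chromosome 2, chr2:32767755-32768457 scored 1006 and 806 in control, against 488 and 565 in knockdown. On chromosome 7, chr7:106299574-106300428 scored 997 and 1094 against 575 and 372, and on chromosome 10, chr10:76593109-76593893 scored 881 and 816 against 448 and 443. In these 3 the scores of the groups did not overlap. The same held on chromosomes 5, 8 and 11. There chr5:108350189-108351010 scored 572 and 505 against 314 and 271, chr8:71642757-71643327 scored 725 and 669 against 532 and 438, and chr11:69392702-69393375 scored 791 and 707 against 505 and 407. On chromosome 13, chr13:48667345-48668131 scored 600.5 and 596 in the controls, 422 in knockdown replicate 1 and 197 in knockdown replicate 2. On chromosomes 14 and 15, chr14:103450390-103451217 scored 789.9 and 625 against 364 and 350.5, and chr15:75509523-75510192 scored 729.9 and 667 against 418 and 269.

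On 3 of these autosomes the leading region had overlapping groups of scores. At chr16:10974934-10975545 the controls scored 774 and 702 and the knockdown libraries 745 and 774. The region chr17:36621447-36621972 scored 853 and 489.8 in control, against 955 and 711 in knockdown. For chr19:45724260-45724935 the scores were 733 and 656 against 715 and 449.8. The control values of the region on chromosome 17 lay farther apart than those of the other 2.

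Both knockdown ranks lay below both control ranks in 579 members (45.4%), against a background of 17.9% of all regions called in all 4 libraries. Both lay above both control ranks in 92 members (7.22%), where the background was 19.2%. In the remaining 603 the groups overlapped. Because the rule took the members for their high control scores, these counts are descriptions and nothing is read from them. The lower 579 had median ranks of 92.1 and 92.6 in control, against of 73.8 and 70.0 in knockdown. The higher 92 had median ranks of 92.3 and 92.4 in control, against of 97.2 and 97.2 in knockdown. Their median control scores were thus alike, at 269 and 262 for the lower members and 270.3 and 261 for the higher ones.

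Few members were low in both knockdown lists. A rank under 50 was found for 155 members (12.2%) in knockdown replicate 1 and for 209 (16.4%) in replicate 2, but for 56 (4.40%) in both. Of these 56, 53 had a lower control score under 250. A rank under 25 in both was found for 5 members. A knockdown rank more than 20 points below the mean control rank was seen in both libraries for 164 members, in replicate 1 alone for 153 and in replicate 2 alone for 217. Among the members, a drop of that size in 1 knockdown library was therefore often absent from the other. These counts were not made for the other shared regions, and the rule used the control scores, so they are descriptions.

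**Figure D3:**
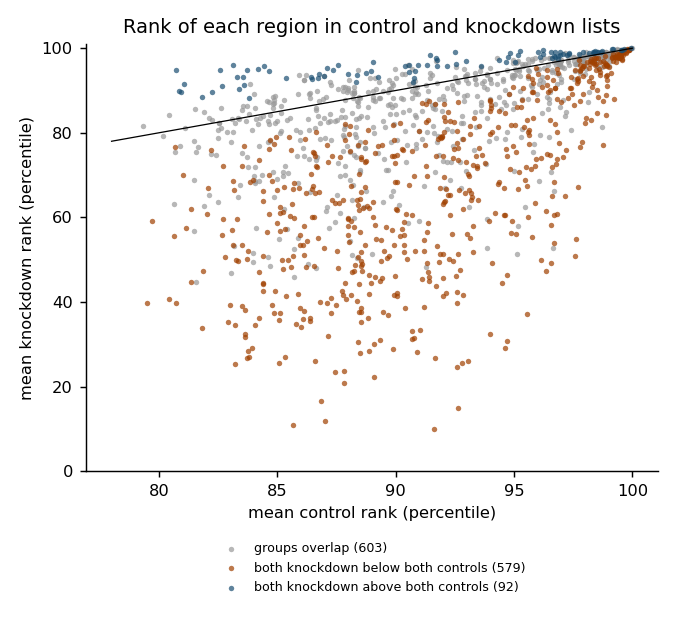
Mean rank of each of the 1274 regions in the 2 control lists (x axis, percentile) and in the 2 knockdown lists (y axis, percentile), coloured by whether both knockdown ranks lay below both control ranks (579), above both (92) or overlapped them (603), with the line of equal rank. Most points lie under the line, and the points spread downward most at control ranks below about 95.

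The member that stood lowest in knockdown against control was chr9:100543602-100544206. It scored 249.9 and 270.2 in control and 63.5 and 56.0 in knockdown, replicate 1 first. Its ranks were 89.9 and 93.4 in control, against 12.0 and 7.88 in knockdown, a difference of -81.7 points. Another region lay 618.5 bp from its centre, the closest neighbour of any member. At chr10:79355303-79355953 the controls scored 248 and 308 and the knockdown libraries 61.7 and 63.9, with a rank difference of -77.8 points. The region chr7:52994569-52995317 scored 244 and 216 in control, against 67.1 and 56.1 in knockdown, a rank difference of -75.2 points. In all of these the knockdown scores were close to the lowest score of the lists, and both libraries of a group were alike.

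The next 3 were chr9:107515040-107515532, chr5:139874360-139874757 and chr11:74190161-74190839. The first scored 226 and 219.6 in control, against 51.2 and 64.9 in knockdown, a rank difference of -74.8 points. The second scored 225 and 235 against 82.6 and 50.3, with ranks of 32.6 and 0.311 in the knockdown lists and a difference of -70.4 points. For the third the scores were 246 and 313 against 79.0 and 64.4, with a rank difference of -68.1 points. The spread between knockdown replicates was wide in rank at the second, though both of its ranks lay below the control ranks of 84.9 and 88.9.

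Members that stood higher in knockdown moved far less, since their control ranks were at least 77.5 by the rule. The largest difference was 14.1 points at chr1:155589472-155590073, which scored 209.9 and 201 in control, against 244 and 158 in knockdown, at ranks of 80.7 and 80.7 against 97.1 and 92.5. At chr2:32794760-32795396 the scores were 217 and 210.3 against 189 and 258, a difference of 12.9 points. This region lies 26972 bp from the leading region of chromosome 2. The region chr7:70021735-70022449 scored 220.5 and 202 against 267 and 157, a difference of 12.4 points. In these 3 regions the knockdown scores lay on both sides of the control scores, although the lists as a whole scored lower.

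A further 3 regions stood from 10.9 to 11.4 points higher in knockdown. They were chr13:23722363-23723054, with scores of 208 and 235 against 186 and 252, chr3:153631451-153632060, with 209.5 and 224 against 186 and 199, and chr2:84847787-84848489, with 226 and 209 against 192 and 193. In the last of these all 4 scores lay within a narrow range, where the median member had 271 and 265 in control, against 160.4 and 133 in knockdown.

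**Figure D4:**
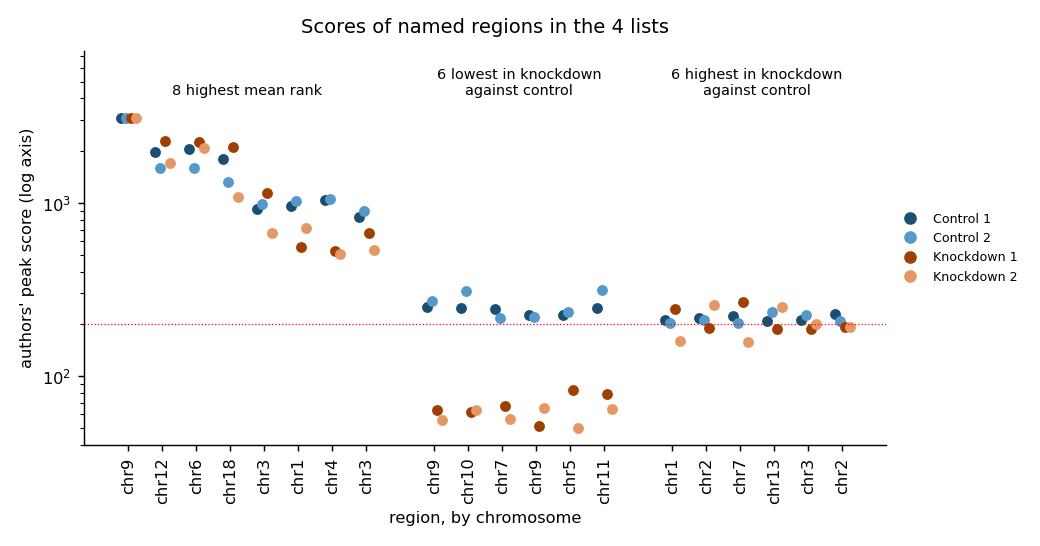
Authors' peak score (log axis) in the 4 libraries for the 8 regions of highest mean rank, the 6 with the largest lower and the 6 with the largest higher rank in knockdown against control, labelled by chromosome, with the score of 200 as a dotted line. In the middle group the knockdown points lie between 50.3 and 82.6 and the control points between 216 and 313.

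Peaks of the members were a little wider than those of the other shared regions in every list. Their median widths were 563 and 588 bp in the control lists, against 386 and 500 bp in knockdown replicates 1 and 2. For the other shared regions the medians were 511 and 535 bp in the controls and 337 and 447 bp in the knockdown lists. Members and other shared regions were split by control score, and width was not compared at equal score, so the contrast is a description. Control peaks of the members had a mean median width of 575.5 bp ± 17.7 (SD, n = 2) and knockdown peaks of 443 bp ± 80.6 (SD, n = 2), a difference of -132.5 bp, with p = 0.333 in the two-sided exact permutation test, again the smallest possible. The difference was -131 bp for the other shared regions. Knockdown replicate 1 had the narrowest peaks, though its list was longer than that of replicate 2. The merged regions of the members had a median width of 691 bp, from 356 to 1000 bp.

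The position of the peaks was nearly the same in all libraries. The centres of the peaks of a member in 2 libraries lay a median of 42.5 to 51.5 bp apart over the 6 pairs of libraries. For the other shared regions these medians ran from 41.5 to 53.0 bp, which covers nearly the same range. The median was 45.5 bp between the controls and 48.0 bp between the knockdown lists. In 1271 members (99.8%) the peaks of all 4 libraries had at least 1 bp in common, as in 99.9% of the other shared regions, a share that merging overlapping peaks and the width limit nearly fix. The shared stretch had a median length of 335.5 bp, against 286 bp in the other shared regions. In 10 members some library had more than 1 peak.

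In 3 members the 4 peaks had no common base. They were chr11:100030183-100031103, chr4:43038019-43038955 and chr7:16879561-16880560, spanning 921, 937 and 1000 bp. The first had control scores of 203 and 241 and knockdown scores of 107 and 58.2. In the first of them the best peak of knockdown replicate 1 ended at 100030738 and that of replicate 2 began at 100030739, while each control peak ran across that point. The scores of such a region in different lists need not belong to the same position.

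The members were thinly spread along the autosomes, at 5.30 per 10 Mb of the stretch between the first and last call of each. Chromosome 19 had the highest density, at 7.56 per 10 Mb, followed by chromosome 11 at 7.41, and chromosome 12 the lowest, at 3.13. Their share of the autosomal regions of the same width called in all 4 libraries varied less. It was highest on chromosome 14, with 75 of 470 (16.0%, 95% Clopper-Pearson interval 12.8 to 19.6%), and lowest on chromosome 12, with 37 of 448 (8.26%, 5.88 to 11.2%). Chromosome 4 had 100 of 757 (13.2%, 10.9 to 15.8%), and the share over all autosomes was 11.3% (10.8 to 11.9%). On chromosome 11, the high density went with 88 of 875 regions (10.1%, 8.14 to 12.2%), a share close to that of all autosomes. Neighbouring regions are not independent, and no test was made.

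The rank difference of the members was below 0 on every autosome. The rule chose the members on their control scores, so nothing is read from this sign. Its median ran from -3.78 points on chromosome 15 to -19.9 on chromosome 18, against -7.34 over all members. Both knockdown ranks lay below both control ranks in 15 of 55 members on chromosome 15 (27.3%) and 24 of 75 on chromosome 14 (32.0%). Chromosomes 11 and 6 had the highest shares, with 48 of 88 (54.5%) and 31 of 57 (54.4%). Over all regions called in all 4 libraries this share was 17.9%. With ranks taken among the members alone, the median difference was 6.24 points on chromosome 13, -6.31 on chromosome 18 and -0.451 over all members.

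The share of members changed in a step at a distance of 5 kb to the nearest region. Among the regions of 1000 bp or less called in all 4 libraries with another CTCF region within 5 kb, 168 of 2486 were members (6.76%, 95% Clopper-Pearson interval 5.80 to 7.82%). Among those with none within 5 kb, the members were 1106 of 8755 (12.6%, 11.9 to 13.3%). The share was 6.90% (4.70 to 9.70%) with the nearest region from 4 to 5 kb away and 14.1% (11.3 to 17.4%) from 5 to 6 kb. It ran from 5.14 to 7.31% in each 1 kb step below 5 kb and from 11.1 to 14.3% in each step from 5 to 100 kb. Beyond 100 kb it was 6.47% (4.50 to 8.97%), with 33 of 510 regions. The limit of 5 kb was chosen after the distances had been seen. The caller's settings, among them any window for the local background, are stated in no source used here, so a product of the calling and a spacing of CTCF sites cannot be told apart.

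Median scores, which come from the same caller and are no separate evidence, had the step too. Regions with a neighbour from 4 to 5 kb away had a median score of 132 and 127 in the controls, and those with one from 5 to 6 kb away 155 and 151. In the knockdown lists the medians were 93.6 and 79.6 below the step and 103.9 and 84.5 above it. In median rank the step ran from 40.7 to 54.3 in the controls and from 43.7 to 50.5 in the knockdown lists. The difference between the groups in the size of the step was not tested.

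No pair of members lay within 5 kb of each other. The closest pair of members had centres 5309 bp apart, the next 5312.5 bp and the third 5366.5 bp, and 9 adjacent pairs lay between 5 and 10 kb apart, 14 between 10 and 15 kb and 13 between 15 and 20 kb. The 168 members with a region within 5 kb had 187 such regions around them, of which 0 were members and 55 were called in all 4 libraries. Those neighbours were weak, with median scores of 88.2 and 82.3 in the control lists that had a call.

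The closest pair lay on chromosome 9. Its members chr9:108181316-108181937 and chr9:108186546-108187325 scored 271 and 265, and 271 and 386, in the controls. In knockdown replicates 1 and 2 the first scored 152 and 62.4, and the second 168 and 153. The first member ranked at 17.3 in knockdown replicate 2 and the second at 91.4, while both ranked above 92 in each control. On chromosome 1, chr1:85111197-85111908 scored 627 and 680.1 in control, against 508 and 399 in knockdown, while chr1:85116626-85117104 scored 276 and 254 in control, against 110.2 and 106 in knockdown. The rank difference was 0.145 points for the stronger member of this pair and -27.0 for the weaker one. The third pair was chr4:137280453-137281244, with a rank difference of -7.44 points, and chr4:137285938-137286492, with -23.5 points.

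**Figure D5:**
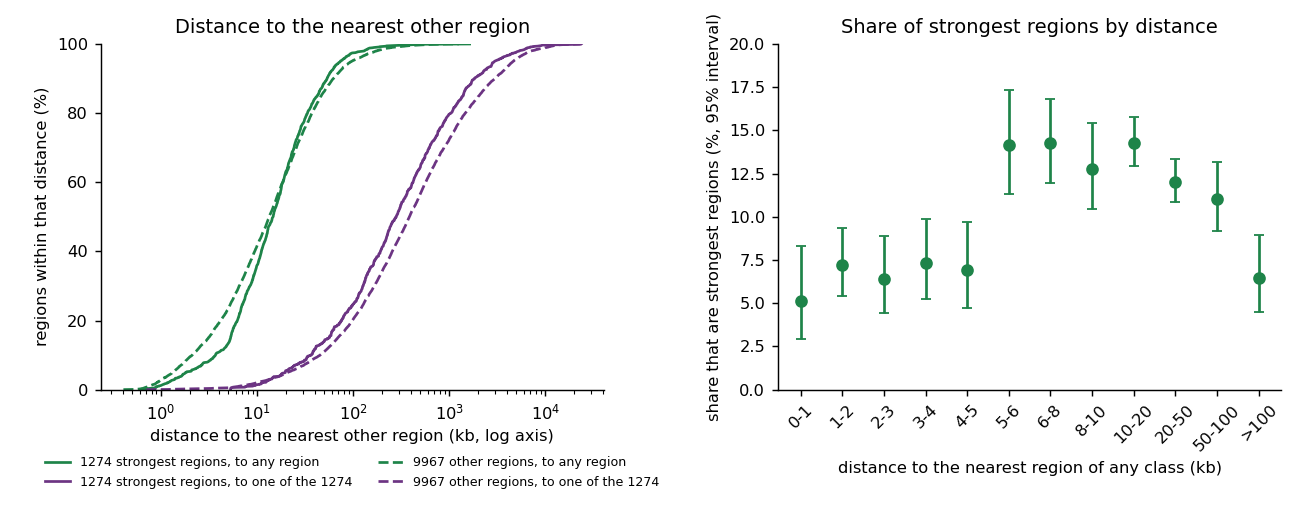
Left, cumulative share (%) of the 1274 strongest and the 9967 other shared regions against the distance in kb (log axis) to the nearest region of any class or to the nearest of the 1274. Right, share of the 1274 among the regions called in all 4 libraries by distance to the nearest region, with exact 95% Clopper-Pearson intervals, which steps from 6.90% at 4 to 5 kb to 14.1% at 5 to 6 kb.

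Apart from that step, members and other shared regions had similar numbers of CTCF regions around them, but members lay nearer to another member. The nearest region of any class lay a median of 14735.75 bp away (order-statistic 95% interval 13264 to 15734.5), against 13415.5 bp for the other shared regions. The median number of other regions within 100 kb was 5 against 4, and 33 members (2.59%) had none, against 4.79%. Members and the regions within 100 kb of them made 6845 pairs, so a region near several members counts several times. The neighbour was called in all 4 libraries in 42.9% of these pairs and in both controls alone in 9.88%. Around the other shared regions these shares were 40.9% and 10.6%. The nearest other member was a median of 280693.25 bp away (order-statistic 95% interval 246202.5 to 310261.5), and 315 members (24.7%) had one within 100 kb. From the other shared regions the nearest member was a median of 385370.5 bp away (370857.5 to 399139), and 20.3% had one within 100 kb.

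Most members had no other member close by. With steps of at most 50 kb, 177 members (13.9%) fell into 82 runs of 2 or more, of which 71 held 2 members, 9 held 3 and 2 held 4. Over the 95 adjacent pairs within 50 kb, Spearman's rho of the rank difference was -0.0304, while both of the longest runs held mostly lower members. In 1 of the runs of 4 members, on chromosome 8 over 46399 bp, both knockdown ranks were below both control ranks in all 4. Its members chr8:122805247-122805931, chr8:122824643-122825326 and chr8:122850859-122851645 had rank differences of -51.9, -31.5 and -42.1 points. The third in order, chr8:122843198-122843982, stood at -1.51 points, with scores of 510 and 464 in control, against 233 and 204 in knockdown. The other run of 4, on chromosome 5 over 116804 bp, had 3 members lower and a median difference of -37.3 points. Both knockdown ranks lay below both control ranks in 45.4% of all members and in 17.9% of all regions called in all 4 libraries. These runs were picked for their length among 82, and the rule used the control scores, so nothing is read from their counts.

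The most isolated member was chr4:28103951-28104441, whose nearest CTCF region of any class was 1633022 bp away. It scored 237 and 268 in control, against 232 and 173 in knockdown, a rank difference of 5.35 points. Next came the region on chromosome 3 at 56379125, described above among the 8 of highest rank. The third, chr15:14558210-14558858, had its nearest region 461257.5 bp away, scores of 230.1 and 209.7 in control, against of 69.2 and 94.6 in knockdown, and a rank difference of -45.4 points. Isolated members thus stood on both sides of an equal rank.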

How the data were processed

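Per the labels, DNA bound by CTCF was pulled down from sonicated nuclei and sequenced on an Illumina HiSeq. BWA, HOMER and mm9 are named, without version, in the submitters' processing notes. The deposited peak names contain the word MACS, but how MACS was run, and against which background sample, no source used here says. The authors deposited, for every library, a list of peaks with position and score, whose starts and ends are printed unaltered.

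Overlapping peaks (1 bp or more) were joined, and ranks were percentiles among the regions called in all 4 libraries. Libraries were compared with the two-sided exact permutation test, and shares got exact 95% Clopper-Pearson intervals. Distances are between region centres. The regions named are the leading member of each autosome, the 8 of highest mean rank, the 6 lowest and 6 highest in knockdown against control, the 3 on each side of the score limit, 6 without a knockdown call, the 3 closest pairs, the 3 most isolated and the longest run. The members and rules were chosen with earlier results of these data known. The planned motif search needs an mm9 genome and was not run. Merging and ranking were tested on simulated data made from 22906 autosomal peak positions of control replicate 1, where 1200 of 1200 planted strong regions were found. Python 3.11.15, numpy 2.4.6, pandas 2.3.3, scipy 1.17.1 and matplotlib 3.10.9 were used.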

Additional observations from a re-analysis of the deposited data

How the results depend on the processing

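Tag depth is unknown, so a score near the limit can fall on either side of it. The number of members was 3511 with a score limit of 150, 357 with a limit of 300 and 56 with regions of 500 bp or less, by construction, and 1280 (without knockdown replicate 1) to 2525 (without control replicate 2) with 1 library left out; without control replicate 1 it was 2153. The nearest other member was then a median of 105173, 1367624 and 19605198 bp away, and 146250.5 to 280622 bp with 1 library left out. Of the strong control regions, 89.0% with a limit of 150 and 99.4% with 300 were called in both knockdown libraries, and 89.7 to 91.0% with 1 control left out. Peak centres of regions of 500 bp or less lay 27.8 bp apart, against a mean of 47.1 bp over the 6 pairs of libraries.

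The rank difference of the members kept its sign under the planned settings, from -19.5 points (regions of 500 bp or less) to -0.451 (ranks among the members alone), and from -15.6 to -2.62 with 1 library left out: -15.1 without control replicate 1, -15.6 without control replicate 2 and -2.62 without knockdown replicate 2. Each planned setting chose its regions on control scores or ranks, so nothing is read from the constant sign. With as many regions chosen on the knockdown ranks, an alternative chosen after seeing the data, the rank difference was 3.63 points, since the choice then favours the knockdown lists. With the replicate number as a block the rank difference of the members was -4.32 points (exact sign-flip p = 0.5, the smallest possible). Replicate 1 minus 2 correlated at 0.0105 between the groups across the regions called in all 4 libraries. A correlation across regions cannot tell whether the numbers pair libraries by culture or run, which no source used here states. The width difference ran from -189 to -75.5 bp with 1 library left out. The 12 members named as lowest or highest kept their direction in all 70 values with other merging, list length or libraries. They were picked for having both knockdown ranks outside both control ranks. Leaving out 1 library could therefore hardly reverse them, and nothing is read from this. With lists of equal length, chr10:79355303-79355953 and chr9:107515040-107515532 gave no value. The share of members with and without a region within 5 kb was 19.9% and 34.5% with a limit of 150, 2.17% and 3.46% with 300, 7.01% and 12.6% with peaks within 500 bp merged, and 10.6% and 16.5% with lists of equal length. With 1 library left out these shares ran from 4.76 to 14.2% and from 9.65 to 23.9%, and in each of the 8 settings the first was lower.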
